A study of Drosophila melanogaster with 9 samples.

Results

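The transcripts recovered by ORB2 immunoprecipitation were compared with those of the embryo extract itself, the input, in *Drosophila melanogaster*. The comparison used 6 of the 9 libraries of the study, 3 from the ORB2 immunoprecipitate (ORB2 IP) and 3 from input, and 6344 of the 6440 listed genes. A gene entered when its mean normalized count over the 6 libraries was at least 10, which left out 96 genes. Doc1 lay just inside this limit at 10.01 and MtnA just outside at 9.94.

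All groups were wild-type flies kept at 25 °C, and the extracts came from embryos of 0 to 3 h. For the ORB2 IP, extract was incubated with the synthetic antibody fragment (Fab) anti-ORB2 E8 on anti-FLAG M2 beads, washed, and eluted with FLAG peptide. In the control IP the Fab was anti-EGFR-C1. Input libraries were made from RNA of the extract, with no precipitation. Ribosomal RNA was depleted and stranded paired-end libraries were sequenced. Each replicate took its own aliquot of extract, and nothing in the labels says whether the extracts were prepared separately, so p-values measure the spread between these libraries.

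ORB2 is one of the CPEB proteins of the fly, RNA-binding proteins that act on translation and poly(A) tails of bound mRNAs. In the early embryo most mRNAs are maternal, laid down in the egg, and they are cleared or translationally silenced as the zygotic genome becomes active. RNA immunoprecipitation followed by sequencing measures how the composition of the recovered RNA differs from that of the extract. It gives no amount of RNA, so a gene listed as lower can be one that was retained less than most others. The tissue check gave 8 of 8 maternal markers and 6 of 8 early zygotic markers in the tables. The tables used here held 0 of 12 follicle cell and eggshell markers, 0 of 8 later-embryo markers and 0 of 4 adult fat body markers. The lowest TPM of any listed gene in an input was 1.001, so genes at lower input levels were not analysed here.

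One input stood apart from the others, and this touches most results below. Across tested genes, which are not independent replicates, input replicate 1 correlated with ORB2 IP at Spearman's rho of 0.817 to 0.849, against 0.601 to 0.656 for input replicates 2 and 3. Its value was the highest of the 3 inputs for 1258 of the 1340 genes that were called at least 2-fold higher in ORB2 IP, and the lowest for 885 of the 955 called at least 2-fold lower. Over all 6344 tested genes it was the highest input for 2391 and the lowest for 2557. The median log2 difference between ORB2 IP and each input over those higher genes was 0.98 for replicate 1, 2.04 for replicate 2 and 2.10 for replicate 3. Without input replicate 1 the differences of these genes from ORB2 IP were therefore wider. Counts of calls over all genes and in gene lists are given with and without this library, and so are the named log2 fold changes of called genes that leaving it out moved by over 1.5 times. What sets this library apart was not tested. Among the ORB2 IP libraries, replicate 3 correlated with the control IP at 0.926 to 0.951 and replicates 1 and 2 at 0.820 to 0.870. ORB2 IP replicate 2 listed 108 genes at 0, against 14 and 7 in the others and 0 in each input.

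The composition of the ORB2 IP differed from input over a large part of the listed transcripts. A gene was called when its adjusted p was below 0.05 (limma, Benjamini-Hochberg over all tested genes). By this rule 1648 genes (26.0%) were higher in ORB2 IP and 1593 (25.1%) were lower, together 3241 (51.1%), and 3655 had an unadjusted p below 0.05. Increases reached much further than decreases. Called genes at least 2-fold higher numbered 1340 (21.1%), at least 4-fold 463, at least 8-fold 112 and at least 32-fold 21. Called genes at least 2-fold lower numbered 955 (15.1%), at least 4-fold 40 and at least 8-fold 9. The central part of the log2 fold changes, between the 5th and 95th percentiles, spanned −1.46 to 2.29 around a median of −0.03, with a median standard error (SE) of 0.29. Ranges without overlap were found for 1901 genes above input (30.0%) and 2035 below it (32.1%).

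**Figure D1:**
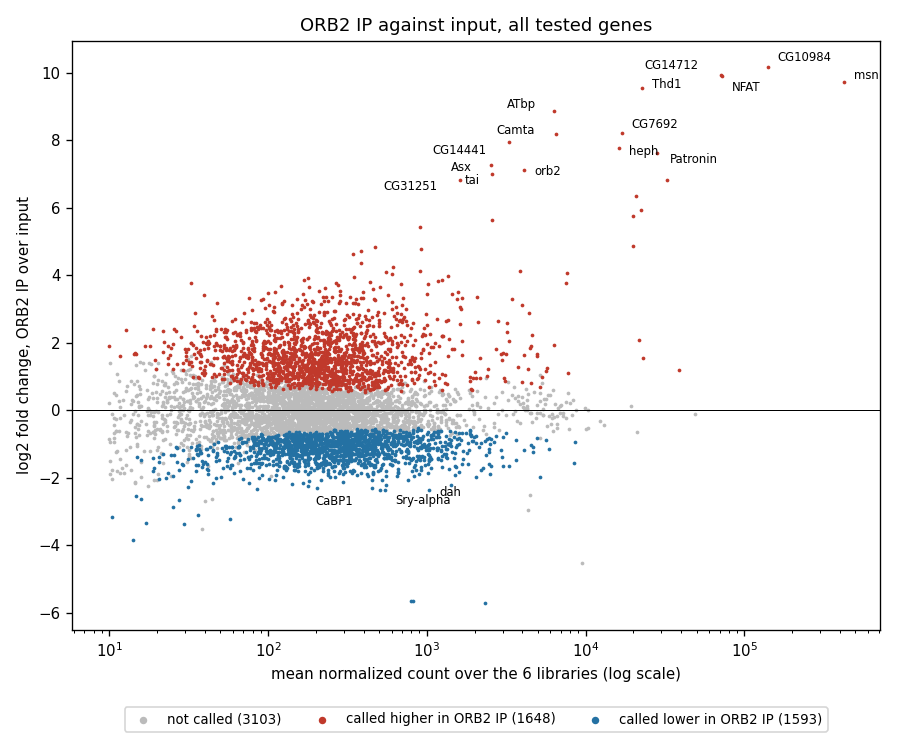
Log2 fold change of ORB2 IP over input (vertical) against the mean normalized count of the 6 libraries (horizontal, log scale), 1 point per tested gene, with the 15 largest increases named, and 3 of the largest decreases among genes with a mean of at least 100 and no overlap. Calls are red for higher (1648 genes) and blue for lower (1593). The named increases, from 6.83 to 10.17, are the upper end of a tail that continues below them, with fl(2)d next. The named decreases lie at the edge of the main cloud.

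Without input replicate 1, limma called 1861 genes higher (29.3%) and 1819 lower (28.7%). A total of 3205 genes were called with the same sign in both fits, 36 were lost and 475 were called only without that library. No called gene changed sign. Leaving out another input lowered the counts, to 1279 higher and 1035 lower without replicate 2 and to 1119 higher and 891 lower without replicate 3. Leaving out an ORB2 IP library gave 1323 to 1442 higher and 1164 to 1359 lower. Scaling moved the split between higher and lower calls. When libraries were rescaled to equal totals the median of all genes moved to −0.81 and the calls to 604 higher and 3196 lower, so that 15.9% of calls were higher against 50.8%. In the TPM table the median was −0.41 and the calls were 970 higher and 2096 lower, with 31.6% higher. Gene lists are therefore given with their relative position, the list's median log2 fold change minus that of all genes. It changed by at most 0.12 between scalings for the 30 lists and changed sign in 0 of them. List counts of 3 or fewer moved by at most 3 genes when 1 library was left out, and larger ones that moved by over 1.5 times are given with the library.

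The shares of the libraries show the size of the shift. The 1340 higher genes held 54.1%, 64.4% and 54.7% of the normalized counts in ORB2 IP replicates 1 to 3, and 15.5%, 7.69% and 7.06% in the inputs. In control IP the same genes held 38.9%, 38.4% and 37.1%. The 955 lower genes held 6.07%, 3.98% and 4.53% of ORB2 IP, 17.0%, 24.1% and 22.9% of input and 6.11%, 6.51% and 6.57% of control IP. The 15 largest increases alone took 31.3%, 41.2% and 30.1% of ORB2 IP. These 15 held 0.106%, 0.0777% and 0.0811% of the inputs and 9.32% to 10.4% of the control IP. Single genes made up most of these IP shares. The largest means were those of msn (841049) in ORB2 IP and of CG10984 (300823) and CG7692 (45945) in control IP. Normalized counts are not divided by transcript length, so these shares describe counts and not molecules.

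The 15 largest increases among called genes with a mean of at least 100 and no overlap lay between 113-fold and 1149-fold. The largest was CG10984 (FBgn0036305; BDGP6.54 chromosome 3L, 12750119 to 12753402, plus strand). It had normalized counts of 242329, 391029 and 206021 with ORB2 and 371, 168 and 203 in input, a log2 fold change of 10.17 (SE 0.37; limma Benjamini-Hochberg adjusted p 6.77e-08). In control IP it stood at 329222, 279899 and 293347, within the range of ORB2 IP. CG7692 (FBgn0036714), at 30790, 44001 and 25991 in ORB2 IP and 159, 106 and 76.5 in input, also came down with the control Fab, at 55505, 40263 and 42068. CG31251 (FBgn0051251) was 113-fold higher over input, with 2796, 4229 and 2621 against 30.9, 26.6 and 23.2, and had 2646, 3017 and 3854 in control IP. For these 3 genes ORB2 IP did not differ from control IP by limma's test, with log2 fold changes of −0.16 (SE 0.91), −0.47 (SE 0.41) and 0.00 (SE 0.24). A log2 fold change over input of 6.82 or more was thus measured with the control Fab as well.

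The other 12 increases were called higher over control IP as well, a comparison in which 20.8% of genes were called higher. Among them was the mRNA of the precipitated protein. The orb2 transcript (FBgn0264307; 3L, 8937100 to 8954463, minus strand) had normalized counts of 6661, 9610 and 8127 in ORB2 IP against 57.2, 42.4 and 76.3 in input. This was 139-fold, or a log2 fold change of 7.11 (SE 0.26, adjusted p 6.77e-08 by limma with Benjamini-Hochberg), which was 7.12 when input replicate 1 was left out. The control IP, at 49.7, 62.8 and 24.2, overlapped the inputs. Exons of orb2 are shared with CG43783 on the same strand, so their reads cannot be told apart in these tables.

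The mRNA of msn, a kinase of the Ste20 family that acts upstream of Jun kinase (FBgn0010909; 3L, 2554847 to 2586540, minus strand), stood at 633988, 1085148 and 804010 in ORB2 IP and 835, 958 and 1149 in input, 843-fold (9.72, SE 0.37). Control IP, at 840, 816 and 755, overlapped the low end of the inputs. NFAT, the fly member of a family of transcription factors named for activated T cells (FBgn0030505; X, 13624745 to 13664568, plus strand), had 92654, 208049 and 131499 against 158, 133 and 136. Its log2 fold change was 9.90 (SE 0.31), and control IP at 209, 228 and 216 lay a little above the inputs. Camta, a calmodulin-binding transcription activator (FBgn0259234), had 9389, 18371 and 11284 against 87.0, 21.7 and 38.3. Its log2 fold change was 8.19 (SE 0.44) and 8.71 without input replicate 1, the highest of its inputs. The coactivator tai had 3191, 7639 and 4405 against 38.1, 33.5 and 35.7, a log2 fold change of 7.02 (SE 0.30). In every one of these genes the lowest ORB2 IP library lay far above the highest input, a separation that the naming rule selects for.

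The polypyrimidine tract-binding protein gene heph had 20932, 43083 and 32158 in ORB2 IP and 332, 81.9 and 99.3 in input (7.77, SE 0.48, and 8.40 without input replicate 1). Its control IP values of 817, 963 and 1304 were also above input. Patronin, which binds microtubule minus ends, had 34037, 79569 and 54153 against 256, 317 and 230 (7.63, SE 0.32). Control IP held 270, 228 and 192, overlapping the inputs. Asx, a Polycomb group gene, had 3137, 6440 and 5608 against 72.2, 17.1 and 21.5 (7.29, SE 0.48, and 7.91 without input replicate 1), with 168, 171 and 128 in control IP. Thd1, the thymine DNA glycosylase gene on chromosome 4, had 25620, 79313 and 29846 against 126, 21.8 and 48.7 (9.55, SE 0.58). Its log2 fold change was 10.19 without input replicate 1 and 8.95 without input replicate 2. Its exons overlap lncRNA:CR43958 on the same strand and zfh2 on the opposite strand. The remaining ones, CG14712 (9.93), ATbp (8.87) and CG14441 (7.95), had log2 fold changes of 1.28, 1.49 and 0.46 in control IP over input.

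**Figure D2:**
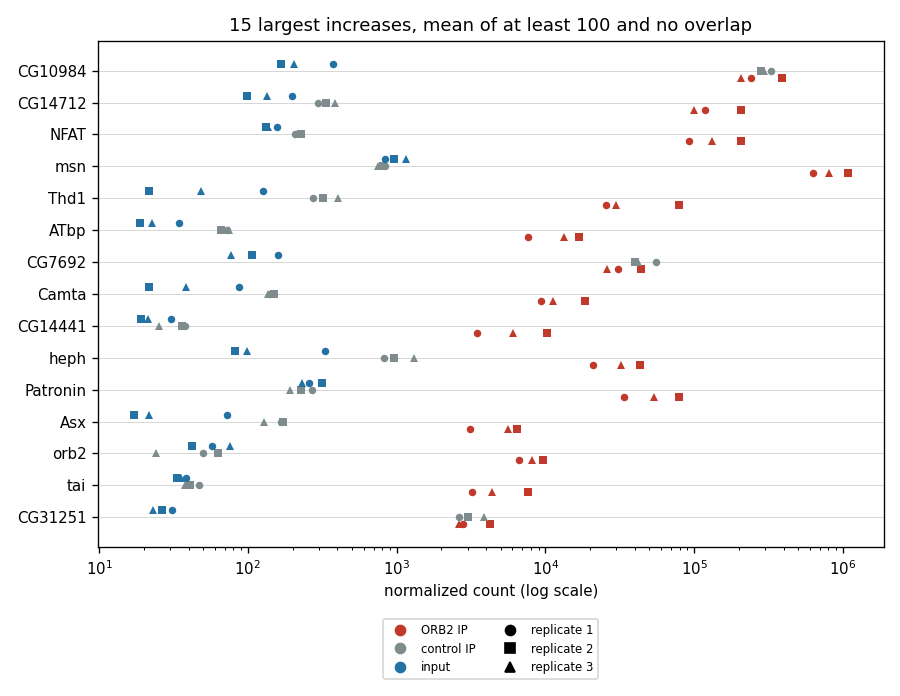
Normalized counts (log scale) of the 15 genes with the largest increases of ORB2 IP over input among called genes with a mean of at least 100 and no overlap, 1 row per gene, with 3 libraries each of ORB2 IP (red), control IP (grey) and input (blue) and replicates marked by shape. All red points lie to the right of all blue ones, and for CG10984, CG7692 and CG31251 the grey points lie with the red.

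ORB2 IP replicate 2 was the highest ORB2 IP library for all 15 genes, and input replicate 1 the highest input for 12. The order of ORB2 IP replicates 1 and 3 varied, with replicate 1 above 3 for CG10984 and below it for NFAT. In control IP against input, where 33.5% of genes were called higher, 10 of the 15 were called higher. All 15 calls held under each alternative tried, including limma's treat, a test against a 2-fold change. Just below the naming limit lay fl(2)d, described with its complex below, at 6.82.

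The 15 largest decreases among called genes with a mean of at least 100 and no overlap lay between 4.18-fold and 5.17-fold. These limits left out 13 larger called decreases, up to 52.2-fold, of which 10 had a mean under 100 and 3, all histone H2B genes, had overlapping groups. Limma's treat against a 2-fold change kept 5 of the 15. Sry-alpha, a zygotic gene needed for cellularization (FBgn0003510; 3R, 30039719 to 30043071, plus strand), had 188, 131 and 215 in ORB2 IP and 757, 906 and 1083 in input. Its log2 fold change was −2.37 (SE 0.26; limma, Benjamini-Hochberg, adjusted p 4.78e-04), and its exons overlap Sry-beta on the same strand. dah, which acts in the membrane furrows of the early embryo, had 324, 314 and 354 against 1144, 1899 and 2203 (−2.35, SE 0.27). Both are early zygotic or cellularization genes, and control IP held 195 to 248 of Sry-alpha and 387 to 535 of dah, also below every input.

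CaBP1, an ER protein of the disulfide isomerase family, had 159, 111 and 177 against 492, 956 and 826 (−2.31, SE 0.30). Sec63, a subunit of the ER translocation machinery, had 221, 187 and 177 against 552, 1047 and 935 (−2.06, SE 0.27). Gle1, a factor of mRNA export, had 180, 168 and 231 against 668, 973 and 1079 (−2.21, SE 0.25). Not10, a subunit of the CCR4-NOT deadenylase complex, had 92.4, 46.5 and 69.7 against 215, 327 and 333 (−2.08, SE 0.32). Tnpo-SR, an importin for splicing factors, was at −2.13 and the lysosomal protease cathD at −2.07. The rest were CG12163 (−2.36), Brd8 (−2.31), cbc (−2.25), Ptpmeg2 (−2.21), CG14688 (−2.17, and −1.53 without ORB2 IP replicate 2), TMS1 (−2.14) and CG8042 (−2.07). Ptpmeg2 overlaps CG3106 on its own strand.

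All 15 were called lower in control IP against input, where 32.3% of genes were called lower. Between ORB2 IP and control IP, where 21.6% were called lower, 1 of the 15 was called, CG14688 at −1.18 (SE 0.43; limma Benjamini-Hochberg adjusted p 0.0454). For the others that log2 fold change ran from −0.71 to 0.45. Input replicate 1 was the lowest input for 14 of the 15, and without it the log2 fold changes were larger, from −2.23 to −2.63.

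**Figure D3:**
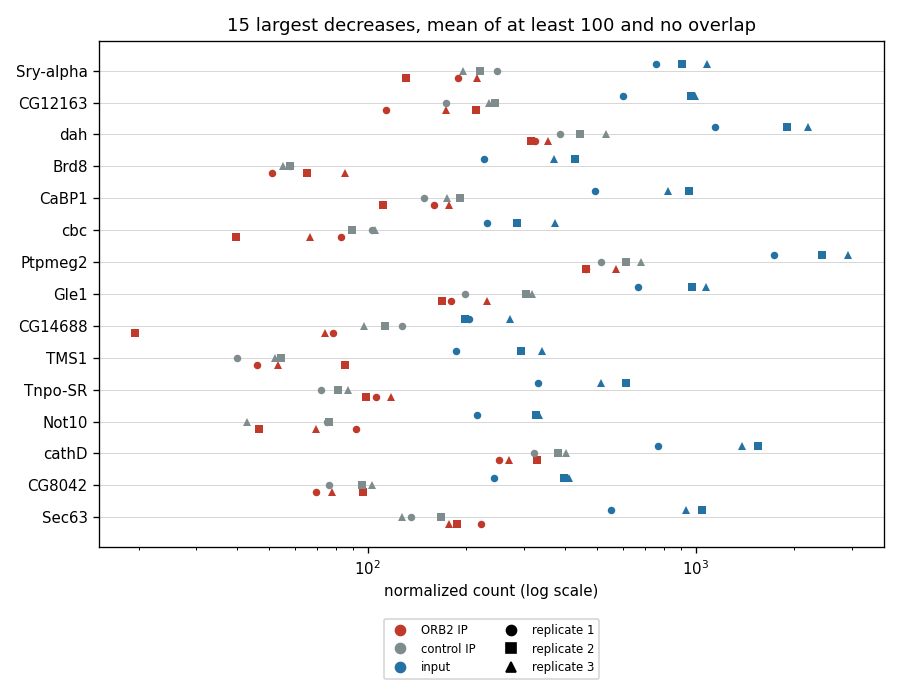
Normalized counts (log scale) of the 15 genes with the largest decreases of ORB2 IP over input among called genes with a mean of at least 100 and no overlap, with the same colours and shapes for groups and replicates as the plot of increases. Red points (ORB2 IP) lie below all blue points (input) in every row, grey points (control IP) lie near the red, and input replicate 1 is the leftmost blue point for 14 of 15 genes.

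Of 26 translational regulators of the CPEB, Pumilio, Nanos and repressor-complex families, 15 were called higher (57.7%) and 2 lower (7.69%), against 26.0% and 25.1% of all genes. When input replicate 1 was left out these were 16 and 2, and the shares of all genes 29.3% and 28.7%. The median log2 fold change was 0.89 and the relative position 0.92. pum, a repressor that binds 3′UTRs, stood out after orb2, with 7292, 9125 and 5455 in ORB2 IP and 396, 397 and 434 in input (4.12, SE 0.24, adjusted p 3.28e-06 by limma with Benjamini-Hochberg). Control IP held 527, 513 and 446, so the excess of ORB2 IP remained at 3.85 over control IP. The DEAD-box repressor me31B had 7259, 7221 and 5363 against 3261, 431 and 295 (3.13, SE 0.71), and 4.19 without input replicate 1, which alone lay near the immunoprecipitates, and 2.46 without input replicate 3. Its control IP values were 4741, 4582 and 3245. Next came how (3.03), mub (2.52), stau (2.21), rin (2.18) and Atx2 (2.02), all of them RNA-binding proteins. orb, the other CPEB gene, had 686, 722 and 426 against 248, 235 and 160 (1.50, SE 0.28).

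Within the same list nos, a posterior determinant, went the other way. It had 2090, 1648 and 1067 in ORB2 IP and 3788, 4809 and 6296 in input (−1.65, SE 0.31; limma Benjamini-Hochberg adjusted p 0.00323). In control IP it was lower still, at 947, 775 and 448, so that ORB2 IP was above control IP by 1.16 (limma Benjamini-Hochberg adjusted p 0.00942). The other member called lower was lig (−0.97), a call lost without ORB2 IP replicate 1 (−0.87), input replicate 2 (−0.70) or input replicate 3 (−0.97). In the same list 18 were called higher and 1 lower over control IP, against 20.8% and 21.6% of all genes. In control IP against input 10 were called higher and 7 lower, against 33.5% and 32.3% of all genes.

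Of 18 deadenylation and poly(A) genes 8 were called higher (44.4%, against 26.0% of all genes) and 5 lower (27.8%, against 25.1%), and 9 and 6 without input replicate 1. The lower count was 3 without input replicate 2 or 3. The median was 0.44 (−0.34 with equal totals) and the relative position 0.47. The CCR4-NOT subunits Not3 (3.34), Not11 (2.50), Not1 (2.24, and 2.87 without input replicate 1) and the deadenylase Pop2 (0.89) were called higher, as was wisp (2.85), the cytoplasmic poly(A) polymerase of the egg. Not3 had 615, 779 and 577 against 265, 41.9 and 22.7. Its log2 fold change was 3.34 (SE 0.69) and 4.36 without input replicate 1 and 2.61 without input replicate 3, with control IP at 448, 530 and 515. The deadenylase twin (−0.59) did not pass the test. Called lower were Not10, already given, and the cleavage factors CstF50 (−1.11), Fip1 (−0.99), CstF64 (−0.90) and Cpsf100 (−0.70). The calls of CstF64 and Cpsf100 were lost without input replicate 2 (−0.85 and −0.68) or 3 (−0.84 and −0.74), that of CstF64 also without ORB2 IP replicate 1 (−0.76) and that of Cpsf100 without ORB2 IP replicate 2 (−0.72) or 3 (−0.57). Pop2 was not called without input replicate 3 (0.75). Over control IP 3 of the 18 were called higher (20.8% of all genes) and 1 lower (21.6% of all genes). In control IP against input 9 were called higher and 5 lower, against 33.5% and 32.3% of all genes.

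Of 16 pole-plasm and germ cell mRNAs 7 were called higher (43.8%, against 26.0% of all genes) and 3 lower (18.8%, against 25.1%), and 8 and 4 without input replicate 1. The median was 0.56 (−0.22 with equal totals) and the relative position 0.59. tud, a scaffold of the germ plasm, had 514, 713 and 409 against 137, 37.7 and 35.9 (3.19, SE 0.47, and 3.82 without input replicate 1). osk, which organises the pole plasm, had 1945, 1750 and 994 against 730, 516 and 266 (1.69, SE 0.38). Its ORB2 IP values were all above input, and control IP at 708, 821 and 357 overlapped the inputs. Called lower were nos, CycB (−0.92) and exu (−0.90). CycB was not called without ORB2 IP replicate 1 (−0.77) or 2 (−0.92) or input replicate 2 (−0.91) or 3 (−0.84), nor exu without ORB2 IP replicate 2 (−0.92) or 3 (−0.64) or input replicate 2 (−0.61) or 3 (−0.91). Over control IP 11 of the 16 were called higher and 0 lower by limma (0 lower also at an unadjusted p under 0.05). Of all genes 20.8% were called higher and 21.6% lower over control IP. In control IP against input 3 were called higher and 5 lower, against 33.5% and 32.3% of all genes.

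Of 15 maternal patterning mRNAs 8 were called higher (53.3%, against 26.0% of all genes) and 3 lower (20.0%, against 25.1%), and 8 and 4 without input replicate 1. The median was 0.80 and the relative position 0.84. cact, the inhibitor of the dorsal-ventral factor Dorsal, had 10460, 17976 and 15063 in ORB2 IP, 1165, 843 and 602 in input and 1894, 2179 and 2530 in control IP. The log2 fold change over input was 4.07 (SE 0.31; limma Benjamini-Hochberg adjusted p 2.35e-05), and cact overlaps fzy on the opposite strand. spz, the ligand of Toll, was at 3.29, or 4.09 without input replicate 1, with control IP at 3.05 over input. dl, which encodes Dorsal, had 475, 390 and 368 against 160, 151 and 124 (1.50, SE 0.23), and control IP at 107, 101 and 97.6 lay below every input. bcd, the anterior determinant, had 209, 219 and 216 against 254, 251 and 274 and did not pass the test (−0.27, SE 0.21). In control IP against input 6 of the 15 were called higher and 3 lower, against 33.5% and 32.3% of all genes. Over control IP 4 were called higher and 2 lower, against 20.8% and 21.6% of all genes. The gap and pair-rule list had 5 of 14 called higher (35.7%, against 26.0% of all genes) and 0 lower by limma (0 lower at an unadjusted p below 0.05), a median of 1.05 and a relative position of 1.08. The count was 8 of the 14 without input replicate 1 and 3 without input replicate 2, input replicate 3 or ORB2 IP replicate 3. In it hb (2.55, and 3.18 without input replicate 1) and gt (1.83) were also 2.18 and 2.02 higher in control IP against input. In that comparison 10 of the 14 were called higher, against 33.5% of all genes.

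Early zygotic and cellularization mRNAs had 4 of 18 called higher (22.2%, against 26.0% of all genes) and 7 lower (38.9%, against 25.1%), with a median of −0.09 and a relative position of −0.06. Without input replicate 1 the balance turned, with 7 called higher and 6 lower and a relative position of 0.05. halo, a regulator of lipid droplet transport, had 274, 329 and 670 against 165, 59.5 and 42.1 (2.38, SE 0.49), and its control IP values of 1236, 1140 and 786 were higher than those of ORB2 IP. Of 8 activators of the zygotic genome 4 were called higher (50.0%, against 26.0% of all genes) and 1 lower (12.5%, against 25.1%). The relative position was 0.53, and both counts were the same without input replicate 1. nej, the CBP acetyltransferase, had 24665, 54501 and 37569 against 985, 646 and 501 (5.76, SE 0.36), with 945, 967 and 676 in control IP. zld, the pioneer factor, had 570, 940 and 973 against 434, 265 and 328 (1.26, SE 0.28), but control IP held 819, 868 and 911. The acetyltransferase Gcn5 was called lower (−1.59).

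Of 20 Polycomb group genes 11 were called higher (55.0%, against 26.0% of all genes) and 1 lower (5.00%, against 25.1%). The gene called lower was Sce (−1.46), and both counts were the same without input replicate 1. The median was 0.77 (−0.01 with equal totals) and the relative position 0.80. After Asx these were led by corto, with 2691, 7688 and 4881 against 154, 54.0 and 93.0 (5.65, SE 0.43), and ph-d, with 939, 2533 and 1832 against 70.4, 24.7 and 28.7 (5.43, SE 0.44). In control IP against input 9 of the 20 were called higher and 2 lower, against 33.5% and 32.3% of all genes. Over control IP 9 were called higher and 2 lower, against 20.8% and 21.6% of all genes. Of 9 m6A writers and readers 6 were called lower (66.7%, against 25.1% of all genes) and 2 higher (22.2%, against 26.0%). Without input replicate 1 these were 7 and 2. The relative position, −0.78, was the lowest of the 30 lists. fl(2)d, a subunit of the m6A writer complex, had 41612, 86880 and 65304 in ORB2 IP against 507, 580 and 554 in input and 589, 654 and 603 in control IP (6.82, SE 0.31; limma Benjamini-Hochberg adjusted p 2.93e-07). The catalytic subunit Mettl3 had 59.9, 38.5 and 20.6 against 73.7, 149 and 126 (−1.59, SE 0.43). The partner subunits Flacc (−1.35), vir (−1.17), Hakai (−0.82) and Mettl14 (−0.80) were called lower too. Without input replicate 3, 2 of the 9 were called lower, and Mettl3 (−1.51), vir (−1.32), Hakai (−0.74) and Mettl14 (−0.66) were not. The call of Mettl3 was also lost without input replicate 2 (−1.38), that of Mettl14 without ORB2 IP replicate 2 (−0.66) and that of vir without ORB2 IP replicate 1 (−1.18), ORB2 IP replicate 2 (−0.89) or input replicate 2 (−0.78). Among 13 co-repressors, Smr (3.31) and HDAC4 (2.19) led 5 called higher (38.5%, against 26.0% of all genes). Another 3 were called lower (23.1%, against 25.1%). The relative position was −0.08, and both counts were the same without input replicate 1. Of 24 remodelers 8 were called higher (33.3%) and 7 lower (29.2%), against 26.0% and 25.1% of all genes. The relative position was 0.32, and the counts were 8 and 8 without input replicate 1. The higher count was 5 without ORB2 IP replicate 2 or input replicate 3, and kis was at 3.77, or 3.08 without ORB2 IP replicate 2. Of 36 coactivator and Mediator genes, tai and nej among them, 8 were called higher (22.2%) and 8 lower (22.2%). These shares lay near the 26.0% and 25.1% of all genes. The relative position was −0.08, and the counts were 11 and 8 without input replicate 1. Calls lower numbered 5 without ORB2 IP replicate 1 or input replicate 2, 4 without ORB2 IP replicate 2 and 3 without input replicate 3. Of 16 insulator-binding protein genes 5 were called higher (31.2%, against 26.0% of all genes) and 3 lower (18.8%, against 25.1%). The relative position was 0.03, and the counts were 5 and 4 without input replicate 1. The higher count was 1 without ORB2 IP replicate 2, 2 without ORB2 IP replicate 3 or input replicate 2, and 0 without input replicate 3.

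All 14 calcium-signalling genes had positive log2 fold changes in the deposited scaling. By limma 11 were called higher (78.6%, against 26.0% of all genes) and 0 lower (0 at an unadjusted p below 0.05), and 10 higher without input replicate 1. The median was 1.41 and the relative position 1.45. NFAT and Camta were followed by Cam, calmodulin, with 3526, 3120 and 4270 against 1048, 200 and 205 (3.36, SE 0.54, and 4.15 without input replicate 1). Cam was higher in control IP, at 6503, 6814 and 7805, than in ORB2 IP. In the SUMO pathway 5 of 7 were called higher (71.4%, against 26.0% of all genes) and 2 lower (28.6%, against 25.1%). The relative position was 1.98, and both counts were the same without input replicate 1. In control IP against input 4 were higher (33.5% of all genes) and 3 lower (32.3% of all genes), with a median of 1.98. Over control IP 1 was higher (20.8% of all genes) and 3 were lower (21.6% of all genes), with a median of −0.30. The SUMO protease gene velo had 30279, 52001 and 32449 against 1033, 1466 and 1302 (4.89, SE 0.30), with 834, 772 and 857 in control IP. smt3, which encodes SUMO, was at 2.89 over input (3.59 without input replicate 1) and −0.98 over control IP. In the JNK list 7 of 16 were called higher (43.8%, against 26.0% of all genes) and 1 lower (6.25%, against 25.1%), Cka at −1.14. Without input replicate 1 these were 9 and 1. The relative position was 0.90, and msn exceeded the next member, wnd (2.05), by far. In the Notch list 9 of 15 were called higher, against 26.0% of all genes, none above 1.63 (H), and 2 lower, with and without input replicate 1 (relative position 0.86). Psn, the gamma-secretase subunit, was at −1.96. Of 25 microtubule genes 11 were called higher (44.0%, against 26.0% of all genes) and 3 lower (12.0%, against 25.1%), with a relative position of 0.57. Leaving out input replicate 1 gave 12 and 6. After Patronin, Spindly had 763, 891 and 578 against 41.7, 25.6 and 17.7 (4.73, SE 0.33) but 991, 700 and 848 in control IP. In the small RNA list 13 of 29 were called higher (44.8%, against 26.0% of all genes) and 3 lower (10.3%, against 25.1%). Without input replicate 1 these were 15 and 4. The relative position was 0.64, with wde, tud, krimp and armi at the top. wde was at 3.62, or 4.57 without input replicate 1. krimp was at 2.40, with 3.16 without input replicate 1 and 1.71 without input replicate 3, and armi at 2.17, or 1.58 without input replicate 3. The calcium, JNK, Notch, microtubule and small RNA lists had 9, 7, 7, 7 and 15 called higher in control IP against input. There 2, 2, 4, 5 and 5 were called lower, against 33.5% higher and 32.3% lower of all genes. Over control IP 8, 4, 4, 11 and 11 were called higher (20.8% of all genes) and 3, 1, 3, 5 and 4 lower (21.6%).

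After the m6A list, the lowest relative positions were those of the ER, proteasome, chaperone, tRNA charging and initiation factor lists. Of 26 ER genes 14 were called lower (53.8%, against 25.1% of all genes) and 3 higher (11.5%, against 26.0%), and 14 and 4 without input replicate 1. The median was −0.81 and the relative position −0.77. Of 24 chaperone genes 12 were called lower (50.0%) and 3 higher (12.5%), and 13 and 5 without input replicate 1 (median −0.69, relative position −0.65). All 8 subunits of the cytosolic chaperonin CCT were called lower, from −0.99 to −1.72, a subgroup picked out after its values were seen. CCT4, for example, had 714, 580 and 585 against 1438, 2371 and 2578, and 615, 571 and 593 in control IP. The mitochondrial chaperonin Hsp60A was at −1.88. Of 33 proteasome genes 20 were called lower (60.6%) and 3 higher (9.09%), and 22 and 3 without input replicate 1 (median −0.76, relative position −0.73). The proteasome list had 12 called lower without ORB2 IP replicate 2 or input replicate 3. Rpt6 was at −1.72 and Rpn7 at −1.61. Of 31 aminoacyl-tRNA synthetases 11 were called lower (35.5%) and 2 higher (6.45%), and 15 and 3 without input replicate 1 (median −0.57, relative position −0.54). ArgRS was higher, at 2.35, with 3.09 without input replicate 1 and 1.57 without input replicate 3. In control IP against input the ER list had 16 lower and 3 higher, and the chaperones 16 lower and 4 higher. The synthetases had 19 lower and 1 higher there, and of all genes 32.3% were called lower and 33.5% higher. Over control IP the synthetases had 12 higher and 0 lower in ORB2 IP by limma (0 lower at an unadjusted p below 0.05). The proteasome had 2 higher and 18 lower over control IP, and of all genes 20.8% were called higher and 21.6% lower.

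Of 65 Golgi and vesicle traffic genes 16 were called higher (24.6%) and 18 lower (27.7%), near the 26.0% and 25.1% of all genes, and 16 and 19 without input replicate 1. The median was 0.12 (−0.66 with equal totals) and the relative position 0.15. COPI coat subunits, again a subgroup picked out afterwards, were called lower for 5 of 6, with betaCOP at 188, 214 and 162 against 462, 902 and 816, 3.72-fold lower. The small GTPases Arf79F (2.21) and Rab8 (1.40) were called higher. Of 35 translation initiation factors 10 were called higher (28.6%) and 14 lower (40.0%), the same counts as without input replicate 1 (median −0.40, relative position −0.36). The lower count was 7 without ORB2 IP replicate 2 and 6 without input replicate 2 or 3. The largest increases were those of eIF4G2 (4.79), eIF4G1 (3.21), eIF4B (3.13), eIF5 (2.55), eIF4EHP (2.37) and eIF4E1 (2.24), and the largest decreases those of the eIF2B subunits eIF2Bepsilon (−1.51) and eIF2Bdelta (−1.35). Without input replicate 1 eIF4G1 was at 3.99, eIF4B at 4.07 and eIF5 at 3.39, and without input replicate 2 eIF5 was at 1.96. eIF4G2 had 1048, 3022 and 1217 against 118, 51.2 and 28.3, and shares exons with CG33111 on its strand. Of 32 cell-cycle regulators 8 were called in each direction (25.0%, near the 26.0% and 25.1% of all genes), and 11 higher and 9 lower without input replicate 1 (relative position 0.07). The lower count was 5 without input replicate 3. Among those called were CycG (2.61) and Cdk2 (2.20) higher and fzy (−1.87) and the Aurora kinase genes aurB (−1.46) and aurA (−1.29) lower.

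Cytoplasmic ribosomal protein genes had 22 of 85 called higher (25.9%, against 26.0% of all genes) and 1 lower (1.18%, against 25.1%), and 25 and 2 without input replicate 1. As deposited 63 of the 85 log2 fold changes were positive. The median of 0.31 was −0.09 in the TPM table and −0.47 with equal totals, while the relative position stayed at 0.32 to 0.34. Mitochondrial ribosomal protein genes had 7 of 72 called higher (9.72%) and 15 lower (20.8%), and 10 and 17 without input replicate 1 (median −0.14, relative position −0.11). The higher count was 3 without ORB2 IP replicate 2, ORB2 IP replicate 3, input replicate 2 or input replicate 3. Oxidative phosphorylation genes had 19 of 64 called higher (29.7%) and 10 lower (15.6%), and 21 and 10 without input replicate 1. Without input replicate 3, 6 were called lower. The median was 0.14 (−0.64 with equal totals) and the relative position 0.17. Among these UQCR-Q (3.07, and 3.73 without input replicate 1) and COX7A (3.00), small subunits of the respiratory chain, were highest, and the core subunits UQCR-C2 (−1.41) and ND-75 (−1.40) were lowest. In control IP against input 47 of the 64 were called higher and 5 lower, against 33.5% and 32.3% of all genes. Over control IP 2 were higher and 44 lower in ORB2 IP, against 20.8% and 21.6% of all genes. Histone genes had 11 of 32 called higher (34.4%) and 4 lower (12.5%), and 11 and 5 without input replicate 1 (relative position −0.06). Without input replicate 3 these were 7 and 1, and the lower count was 1 without ORB2 IP replicate 2 and 8 without ORB2 IP replicate 3. The calls lower included His2B:CG33870, with 12.9, 0 and 394 in ORB2 IP against 2704, 164 and 1518 in input, groups that overlapped. Its log2 fold change was −5.64, from −3.56 without ORB2 IP replicate 2 to −7.88 without ORB2 IP replicate 3, and was not called without ORB2 IP replicate 1 (−5.47), ORB2 IP replicate 2 or input replicate 3 (−5.24). These genes are multicopy, so their reads cannot be told apart. Of the 32 histone genes, 20 were called higher and 1 lower in control IP against input. Over control IP 0 were called higher and 9 lower in ORB2 IP.

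**Figure D4:**
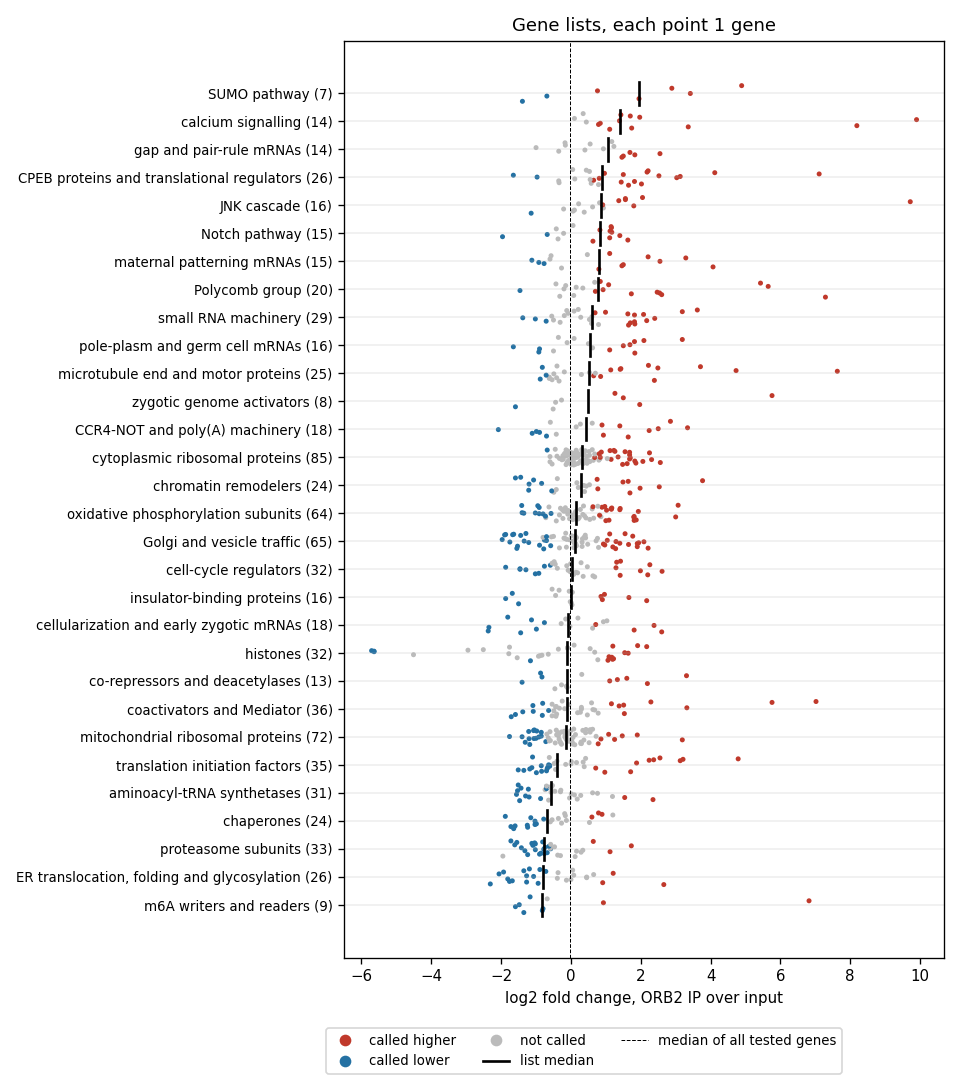
Log2 fold change of ORB2 IP over input for the members of 30 gene lists (1 point per gene, number tested in parentheses), ordered by list median (black bar), with the median of all tested genes as a dashed line. SUMO, calcium, gap and pair-rule, and translational regulator lists sit to the right, and m6A, ER and proteasome lists to the left. Single genes such as msn, fl(2)d and nej lie far from the rest of their lists.

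Transcript length moved with the comparison. Lengths are those of the BDGP6.54 annotation, which may not be the one behind the tables. Called genes at least 2-fold higher had a median transcript length of 2552 nt, those at least 2-fold lower 1996 nt and all tested genes 2025 nt. Their median 3′UTR lengths were 499.5, 224.0 and 312.0 nt. Over 10 groups of about equal size by transcript length the median log2 fold change was 0.35 in the shortest (288 to 855 nt), −0.42 in the fourth (1424 to 1701 nt) and 0.81 in the longest (5088 to 23041 nt). In the group of longest transcripts 52.7% of genes were called higher and 10.8% lower, against 26.0% and 25.1% of all genes. The curve without input replicate 1 had the same shape, from 0.45 through −0.48 to 0.87. Over control IP the median rose from −0.70 in the shortest group to 0.61 in the longest, and in control IP against input it ran from 1.02 through −0.49 to 0.19. Of 10 such groups by 3′UTR length, the longest (1504 to 18494 nt) had 49.4% called higher. The shortest had 21.8%, near the 26.0% of all genes. The part of transcript length in the results for single genes and lists was not tested.

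Genes of chromosome 4, the small heterochromatin-rich autosome, stood apart, a pattern noticed after the values were seen. Of 43 tested, 36 were called higher in ORB2 IP (83.7%, against 26.0% of all genes). ND-49 (−1.35) alone was called lower (2.33%, against 25.1%). Without input replicate 1, 36 were also called higher. Over all alternatives other than treat the higher count ran from 24 to 36. The median with all libraries was 2.08. The median was 2.60 without input replicate 1, 1.49 in the TPM table and 1.30 with equal totals. After Thd1 the largest were Slip1 (3.97), Mitf (3.34), MED26 (3.32), bip2 (3.25), eIF4G1 (3.21) and 4E-T (3.17). The values without input replicate 1 were 5.11, 4.15, 3.92, 4.05, 3.99 and 4.03. Without input replicate 2 Slip1 was at 3.04, MED26 at 2.67, bip2 at 2.49 and 4E-T at 2.33. In control IP against input 40 of the same genes were called higher (33.5% of all genes) and 1 lower (32.3% of all genes). The median there was 2.01. Over control IP 5 were higher (20.8% of all genes) and 9 lower (21.6% of all genes), with a median of −0.22. Their median transcript was long, 3965 nt. Within the group of longest transcripts, 17 genes of chromosome 4 had a median of 2.08 and the 613 others one of 0.77. The chromosome 4 median was above that of the others in length groups 3 to 10. In groups 1 and 2, the shortest, it was 0.09 (1 gene) and −0.11 (3 genes), against 0.36 and −0.02. Genes of the X chromosome were called higher for 20.4% and lower for 32.9% of 1118, against 26.0% and 25.1% of all genes. Their median was −0.26. On the major autosomal arms the median lay between −0.09 and 0.08.

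**Figure D5:**
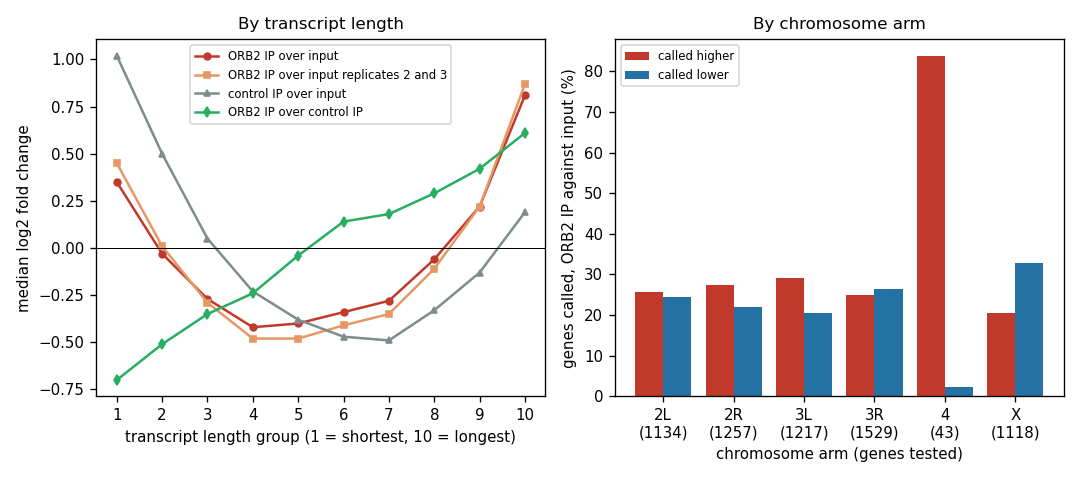
Left, median log2 fold change in 10 groups of annotated transcript length for ORB2 IP over input with all inputs and with replicates 2 and 3, control IP over input, and ORB2 IP over control IP. Right, percentage of tested genes called higher or lower in ORB2 IP against input on each chromosome arm, with 83.7% higher on chromosome 4.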

How the data were processed

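The authors deposited a table of TPM and a table of normalized counts, treated here as a signal because no label defines its scale. The tools named per the submitters' processing notes are Trim Galore 0.6.5, Salmon 1.9.1 and also DESeq2 1.42.1, with no role or order. Build and annotation were not given in the sources used here. Samples were grouped by their titles. Normalized-count totals were 3952548 to 5368634 in ORB2 IP and 2625388 to 2856867 in input. The number of reads is unknown, so no counting intervals were computed.

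The test was limma-trend with empirical Bayes (limma 3.58.1, R 4.3.3) on log2(normalized count + 1) of the 6 libraries, two-sided, with Benjamini-Hochberg adjustment over all 6344 genes. Fold changes are on that scale, which understates changes of low genes. The 2-fold limit was put on the estimate only. The same fit, each on its own 6 libraries, gave ORB2 IP against control IP (6318 genes) and control IP against input (6355). These comparisons share libraries with ORB2 IP against input, so values are set side by side and their agreement is no result. The fitting step was tested on simulated data. Tables and figures used Python 3.11.15, pandas 2.3.3 and matplotlib 3.10.9.

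The genes named were orb2, the 15 largest increases and 15 largest decreases among called genes with a mean of 100 or more and non-overlapping groups, and members of 30 gene lists, each counted in full. The comparison, members and lists were chosen with earlier results of these data known. Identifiers matched BDGP6.54 for 6394 of 6440 genes, and the transcript with the longest 3′UTR gave lengths. Protein and promoter sequences were not analysed here.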

Additional observations from a re-analysis of the deposited data

How the results depend on the processing

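Other pseudocounts, filters, equal upper quartiles, all 9 libraries in one fit and no mean-variance trend left the 4 counts of calls within 1.5 times. The TPM table gave 970 genes higher, with 871 higher and 1767 lower by 2-fold or more. Equal totals gave 604 higher and 3196 lower, with 547 and 2652 at least 2-fold. Equal totals moved the log2 fold changes of the largest increases and decreases by nearly the same amount (median of all genes −0.81). In the TPM table (median −0.41) the shift differed between genes. Among the largest increases it was wider for Asx, CG14441, tai and Camta than for msn and CG10984. Limma's treat against 2-fold called 73 higher and 6 lower. Leaving out 1 library in turn gave 1119 to 1861 higher, 891 to 1819 lower, 1031 to 1569 higher by 2-fold or more, and 690 to 1218 lower by 2-fold or more. The lower count was 1035 without input replicate 2 and 891 without input replicate 3, fits that keep the input that stood apart and 1 other. Deviations of ORB2 IP and input libraries with the same number correlated at −0.190, 0.094 and 0.181. Libraries with different numbers ranged from −0.403 to 0.293. With 3 libraries a group these values cannot tell whether the numbers pair the samples. With a replicate block 1554 genes were called higher and 1421 lower, with 1306 and 922 at least 2-fold. Of 442 called genes among those named or listed, 77 lost their call in the TPM table, 135 with equal totals and 139 without input replicate 3, and no call reversed in any alternative. Read depth is unknown, so limits at low abundance were not computed.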
